A study of Mus musculus with 8 samples.

Results

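Eosinophils are granulocytes of type 2 immunity, and the 10 genes described here encode proteins of their granules and receptors of their surface. The genes were chosen by name: Prg2, Rnase2a, Rnase2b and Ear2 for the granule, Siglecf, Ccr3 and Adora3 for the surface, and Il5ra, Csf2rb and Csf2rb2 for cytokine receptor chains. All 10 were found among the 49315 gene identifiers of the count table, and all 10 were among the 16760 genes with enough counts to be tested. RNA of whole esophagus was sequenced from male mice aged 8 weeks. EoE33 mice (n = 4) overexpress IL-33 in the esophagus from a transgene, and the controls (n = 4) were wild type littermates, all given as strain C57BL/6J. The sources used here name neither the promoter of the transgene nor its founder lines, and each library is taken as 1 mouse, as the labels give no pooling. The comparison addresses the effect of this alarmin cytokine on esophageal transcripts.

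Eosinophils store major basic protein (the product of Prg2), eosinophil peroxidase (Epx) and ribonucleases of the RNase A family in their granules. They mature in bone marrow under IL-5, which signals through the alpha chain Il5ra paired with the beta chain Csf2rb; IL-3 and GM-CSF use the same beta chain, and mice have a second, IL-3-specific beta chain, Csf2rb2. Eotaxins call them into tissue through the chemokine receptor Ccr3. The healthy esophagus holds few eosinophils, and their accumulation in its epithelium defines eosinophilic esophagitis. None of the 10 genes is confined to eosinophils: Siglecf is also made by alveolar macrophages and tuft cells, Il5ra by some B cells, Adora3 by mast cells, and Csf2rb by most myeloid cells.

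The ribonuclease genes are close paralogs, so their sequences decide whether counts can be assigned to each. Rnase2a and Rnase2b lie on chromosome 14 from 51255262 to 51256112 and from 51162260 to 51163018, and Ear2 lies on the same chromosome from 44102654 to 44103534 (GRCm38). In the same build the other genes lie as follows: Prg2 on chromosome 2 from 84980461 to 84983632, Siglecf on chromosome 7 from 43351341 to 43359531, Ccr3 on chromosome 9 from 124021972 to 124031689, Adora3 on chromosome 3 from 105870858 to 105908926, Il5ra on chromosome 6 from 106710357 to 106749037, Csf2rb on chromosome 15 from 78325752 to 78353847 and Csf2rb2 on chromosome 15 from 78282507 to 78305721. Over 468 aligned coding bases Rnase2a and Rnase2b were 83.76% identical, Rnase2a and Ear2 80.34%, and Rnase2b and Ear2 78.63%. The longest identical run was 27 bases for the first pair, 46 for the second and 31 for the third, all shorter than the 150-base reads. The stretch of 120 coding bases in which Rnase2a and Rnase2b differed most, bases 73 to 192 of each coding sequence (GENCODE M21, GRCm38), is shown 5′ to 3′ to make that visible, with capitals for bases that differ from Rnase2b.
Rnase2b: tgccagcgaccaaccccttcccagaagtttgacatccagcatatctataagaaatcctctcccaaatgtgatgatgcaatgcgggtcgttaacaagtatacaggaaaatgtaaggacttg
Rnase2a: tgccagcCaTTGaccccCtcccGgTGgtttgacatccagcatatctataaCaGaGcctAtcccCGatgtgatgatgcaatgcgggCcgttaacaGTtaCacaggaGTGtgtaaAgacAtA
Ear2: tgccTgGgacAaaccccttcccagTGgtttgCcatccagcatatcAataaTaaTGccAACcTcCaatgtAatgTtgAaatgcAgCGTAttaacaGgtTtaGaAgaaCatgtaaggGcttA
In this stretch Rnase2a differed from Rnase2b at 24 bases and Ear2 at 30. None of the 150-base windows of the Rnase2a and Rnase2b transcripts occurred in a transcript of another gene, and 6.32% of those of Ear2 occurred in Ear10. Prg2, Siglecf, Ccr3 and Il5ra shared none. The beta chains Csf2rb and Csf2rb2, which are neighbours on chromosome 15, were 95.21% identical over 2631 aligned coding bases with an identical run of 242 bases. Of their windows 3.47% and 3.59% were shared, so a small part of their counts cannot be assigned. Adora3 shared 23.55% of its windows with the overlapping gene Tmigd3, which itself had 1 count in wild type as a whole and 11 in EoE33. Adora3 reads from the shared exons can therefore be missing from, or wrongly placed in, its counts.

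The region just upstream of the ribonuclease genes was also alike between them. Because these 3 genes were all higher in EoE33, the 250 bases before each RefSeq start are shown 5′ to 3′ on the strand of the gene, from chr14:51162010-51162259 (plus strand), chr14:51256113-51256362 (minus strand) and chr14:44102404-44102653 (plus strand) in GRCm38.p6. Capitals mark matches to TTGCNNAA, a core of sites for C/EBP factors, or to the GATA-type hexamers AGATAA (or its form AGATAG) and likewise TGATAA (or its form TGATAG), on either strand.
Rnase2b: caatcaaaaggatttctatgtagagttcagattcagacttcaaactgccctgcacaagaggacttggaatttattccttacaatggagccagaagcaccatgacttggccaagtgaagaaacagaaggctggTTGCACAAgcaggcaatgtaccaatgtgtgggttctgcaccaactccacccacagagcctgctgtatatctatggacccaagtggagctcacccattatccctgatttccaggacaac
Rnase2a: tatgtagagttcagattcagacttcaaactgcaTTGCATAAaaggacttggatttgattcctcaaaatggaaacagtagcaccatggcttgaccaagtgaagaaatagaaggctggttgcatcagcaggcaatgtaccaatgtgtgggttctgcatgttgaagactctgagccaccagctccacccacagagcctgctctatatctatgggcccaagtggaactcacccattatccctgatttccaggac
Ear2: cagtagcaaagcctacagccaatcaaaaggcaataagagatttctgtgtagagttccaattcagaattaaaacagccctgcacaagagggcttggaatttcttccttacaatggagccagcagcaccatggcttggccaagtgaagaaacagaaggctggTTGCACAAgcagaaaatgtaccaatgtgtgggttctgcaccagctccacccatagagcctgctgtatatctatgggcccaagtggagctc
Rnase2a and Rnase2b were 91.34% identical over 231 aligned upstream bases, Rnase2b and Ear2 90.99% over 222, and Rnase2a and Ear2 86.41% over 206. Each held 1 match to TTGCNNAA, starting 118 bases before the start in Rnase2b, 90 in Ear2 and 217 in Rnase2a, and none held a GATA-type hexamer. The matches of Rnase2b and Ear2 lay between the same flanking bases. Rnase2a held no match between those bases, and its own match lay farther from the start. Ccr3 and Il5ra, which encode the eotaxin receptor and the IL-5 receptor alpha chain, are shown for contrast, from chr9:124021721-124021970 (plus strand) and chr6:106749038-106749287 (minus strand).
Ccr3: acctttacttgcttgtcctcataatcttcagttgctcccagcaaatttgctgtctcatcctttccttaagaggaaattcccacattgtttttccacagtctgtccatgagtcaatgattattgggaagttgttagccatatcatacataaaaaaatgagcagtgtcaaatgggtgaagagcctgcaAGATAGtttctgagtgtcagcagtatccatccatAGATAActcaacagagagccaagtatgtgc
Il5ra: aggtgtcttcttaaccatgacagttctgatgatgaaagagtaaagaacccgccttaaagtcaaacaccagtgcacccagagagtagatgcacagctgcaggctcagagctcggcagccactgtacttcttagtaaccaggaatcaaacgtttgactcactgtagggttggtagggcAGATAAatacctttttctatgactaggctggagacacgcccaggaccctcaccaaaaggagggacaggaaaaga
Ccr3 held 2 GATA-type hexamers, starting 64 and 30 bases before the start, and Il5ra held 1, starting 74 bases before it. Sequences were found for 8 of the 10 genes. GATA-type hexamers occurred in 4 of them (Ccr3, Il5ra, Adora3 and Csf2rb2) and in 26.5% of all 32851 windows of this length, and TTGCNNAA in 3 and in 9.6%. Those 3 are the paralogs Rnase2a, Rnase2b and Ear2, so they are not 3 independent windows. A match is a run of letters and not a measured binding site.

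Il33 was at 371 ± 16.1 CPM in EoE33 and 129 ± 27 CPM in wild type (SD, n = 4 each), where CPM are counts relative to library size, scaled between libraries, so the labels hold for the targeted gene. Depth was 17726292 to 24070822 counts per library, and a floor of 3 counts in a library corresponded to 0.127 to 0.175 CPM. Markers of esophageal squamous epithelium were abundant in every library (8 genes, summed level 41000 to 91300 CPM). Skeletal muscle markers were lower in EoE33, 6 of 6 called, at 19700 to 21900 CPM in wild type, against 5400 to 7180 CPM in EoE33, and the part of this shift in the values of other genes was not tested. Other tissue stood out in wild type replicate 3, with airway markers at 1900 CPM against 374 to 543 in the other wild type libraries. In those others most of the level was Cyp2f2 (506, 535 and 367 CPM in replicates 1, 2 and 4). Scgb1a1 and Bpifa1 were at 350 and 635 CPM in replicate 3, against at most 5.89 and 0.932 CPM in the others. Liver markers stood out in wild type replicate 1, at 151 CPM against 4.49 to 11.5. Results that rest on wild type replicates 1 and 3 are given with and without them.

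All 10 genes were higher in EoE33, and for each of them the lowest EoE33 library exceeded the highest wild type library (edgeR quasi-likelihood test, adjusted p from 6.09e-07 for Rnase2b to 0.0183 for Il5ra). In the same comparison 31.3% of the genes tested were called higher, and 29.6% had all EoE33 libraries above all wild type libraries. A two-sided exact permutation test gave p = 0.0286 for each gene, the smallest that 70 orderings of 4 against 4 libraries allow. Log2 fold changes ran from 2.00 for Adora3 to 8.43 for Rnase2a with a median of 3.61, against a median of −0.01 over all genes tested. Only Rnase2b, Ear2, Csf2rb and Csf2rb2 reached the filter level of 0.45 CPM in every wild type library. The other 6 passed the filter through the EoE33 libraries. Of these, Prg2, Rnase2a, Siglecf, Ccr3 and Adora3 were under that level in every wild type library, and Il5ra was under it in wild type replicates 1 and 2, so the count of 10 is a description. Bulk libraries do not tell more eosinophils from more RNA per cell, or either of these from transcripts of other cells.

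**Figure D1:**
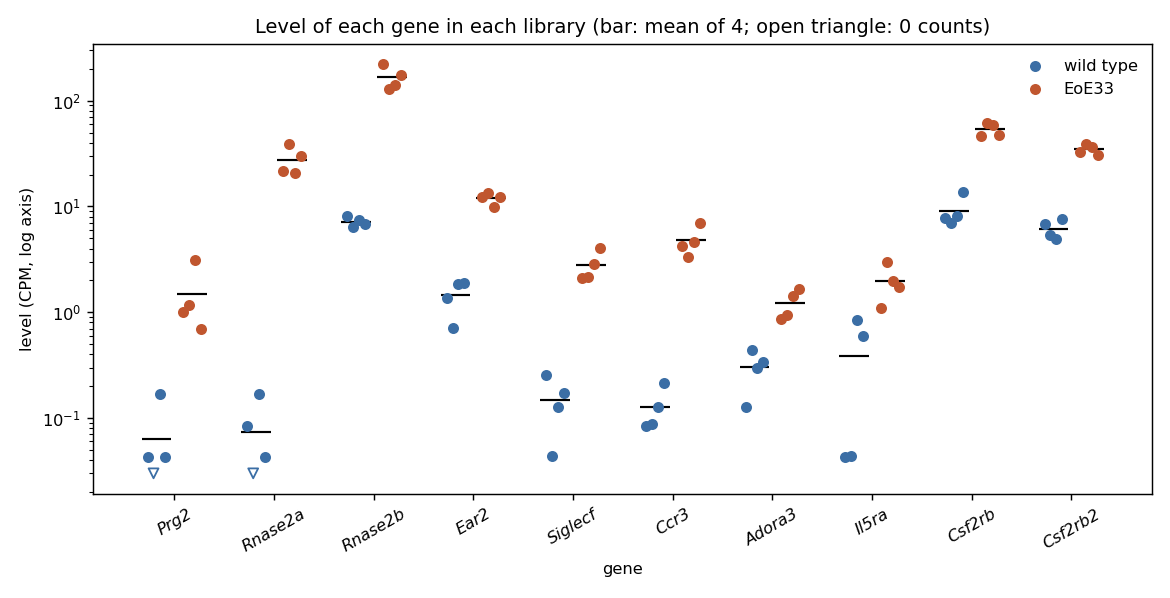
Level of each of the 10 genes in every library, in CPM on a log axis (blue, wild type; orange, EoE33; bars, means of 4 libraries; open triangles, 0 counts). The groups do not overlap for any gene, and Rnase2b runs from 6.45 to 8.18 CPM in wild type and from 128 to 220 CPM in EoE33.

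Of the granule genes, Rnase2b was the most abundant per length of transcript in both groups. This eosinophil-associated ribonuclease gene was at 8.18, 6.45, 7.39 and 6.8 CPM in wild type replicates 1 to 4 and at 220, 128, 142 and 176 CPM in EoE33 replicates 1 to 4, the order in which values are given throughout. The wild type values lay close together, and every EoE33 value lay far above them. The log2 fold change was 4.53 ± 0.19 (SE, edgeR adjusted p = 6.09e-07), a 23.1-fold rise. Its paralog Rnase2a was nearly silent in wild type, with 2, 0, 4 and 1 counts, and reached 455, 661, 479 and 601 counts in EoE33. The fitted log2 fold change of 8.43 ± 0.43 (SE, edgeR adjusted p = 1.29e-06) rests on those 7 wild type counts. It was 9.15 without wild type replicate 3, which held 4 of them, and 9.97 without wild type replicates 1 and 3.

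Ear2, a further ribonuclease of the family, was at 1.36, 0.702, 1.86 and 1.88 CPM in wild type, against 12.3, 13.4, 9.95 and 12.4 CPM in EoE33. Among the granule genes it had the smallest spread in EoE33, with a coefficient of variation of 12.1% against 73.1% for Prg2. Its log2 fold change was 3.04 ± 0.27 (SE, edgeR adjusted p = 1.33e-05), an 8.25-fold rise. Prg2, the gene of major basic protein, had 1, 0, 4 and 1 counts in wild type and 21, 20, 72 and 14 counts in EoE33. EoE33 replicate 3 alone held 72 of the 127 EoE33 counts. The log2 fold change of 4.44 ± 0.75 (SE, edgeR adjusted p = 0.000767) was 3.79 without that library, 5.46 without wild type replicate 3, and 5.77 without wild type replicates 1 and 3.

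The make-up of the ribonuclease counts differed between the groups. Rnase2a took 0 to 1.79% of the summed counts of Rnase2a, Rnase2b and Ear2 in wild type and 8.53 to 21.4% in EoE33, and Ear2 took 9.82 to 21.6% and 4.85 to 7.42%. The ranges do not overlap for either gene. Rnase2b held 77.9 to 90.2% in wild type and 71.2 to 86.6% in EoE33, which do overlap. The mean log2 ratio of Rnase2a to Rnase2b counts, with 0.5 added to each, was −6.62 ± 1.21 in wild type and −2.60 ± 0.67 in EoE33 (mean and SD of 4 libraries each). For Rnase2b to Ear2 it was 2.39 ± 0.6 and 3.77 ± 0.37. Both ratios differed without overlap (two-sided exact permutation p = 0.0286 each), but over the 5 pairs of genes compared the adjusted p was 0.0714, so neither passed. These 5 pairs were chosen after their values were seen.

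**Figure D2:**
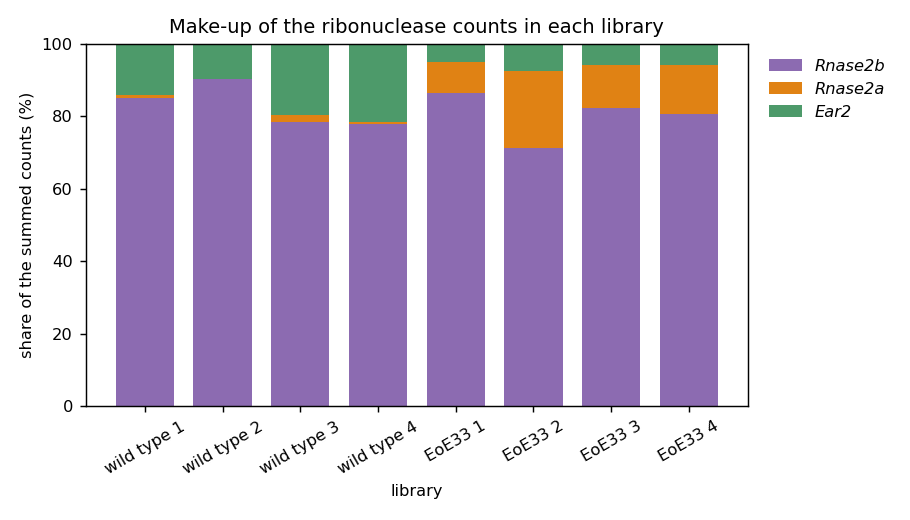
Share of the summed counts of Rnase2a, Rnase2b and Ear2 taken by each gene, in percent, for the 8 libraries. Rnase2b takes most of the counts in every library, Rnase2a at most 1.79% in wild type and at least 8.53% in EoE33.

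Other genes of the granule and of the RNase A family formed a list of 12, of which 5 were tested, 4 rose and none fell (median log2 fold change 0.96). This and the later list counts stand beside 31.3% called higher and 32.1% called lower among all genes tested. Some listed genes and markers that rose reached the filter level in every EoE33 library but not in every wild type library. Among them were Ccl8, Ccr4, Ccr7, Ccr8, Cebpe, Cd300lf and the neutrophil markers Csf3r, Retnlg, Ly6g and Mmp8. The list counts are therefore descriptions. Rnase1, Rnase4, Rnase6 and Ang, family members made by many cell types, rose with log2 fold changes of 0.96, 0.89, 1.35 and 1.54. Rnh1, which encodes the cytosolic ribonuclease inhibitor, did not pass, at 231 CPM against 272 CPM in EoE33. The remaining 7 had too few counts. Epx, the eosinophil peroxidase gene, had 0, 0, 2 and 1 counts in wild type and 3, 3, 11 and 2 in EoE33, 7.28 times the wild type share (95% interval 2.14 to 38.4, counting error only). Ear6 had 0 counts in wild type and 2, 3, 16 and 8 in EoE33, at least 11.1-fold higher when wild type is set to 3 counts in the group. Ear1 had 9 counts in wild type as a whole and 14, 4, 31 and 3 in EoE33. Prg3, a homolog of Prg2, had 1 count against 2, Ear10 had 0 and 4, Ang4 had 0 and 1, and Ear14 had none. Prg2, Epx, Ear1 and Ear6 were thus each highest in EoE33 replicate 3. That library also had the highest summed level of erythroid markers, 648 CPM against 105 to 467 in the other EoE33 libraries and 91.3 to 405 in wild type. None of the 5 erythroid markers tested passed, though 3 were called higher with the replicate block, 1 with no low-count filter and 1 without EoE33 replicate 2. None of the 6 was at 0 in a group, and their part in the level of Prg2 was not tested.

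Of the surface genes, Ccr3 rose the most. It encodes the receptor for the eotaxins and had 2, 2, 3 and 5 counts in wild type and 88, 57, 107 and 140 counts in EoE33. The groups lay far apart, and the log2 fold change was 5.16 ± 0.36 (SE, edgeR adjusted p = 4.18e-06), a 35.7-fold rise. Siglecf encodes a sialic acid binding lectin that restrains eosinophils, and it had 6, 1, 3 and 4 counts in wild type and 44, 37, 66 and 82 in EoE33. Its log2 fold change was 4.18 ± 0.41 (SE, edgeR adjusted p = 2.76e-05). Adora3, the gene of the A3 adenosine receptor, had 3, 10, 7 and 8 counts in wild type and 18, 16, 33 and 33 in EoE33. It had the smallest rise of the 10, 4.01-fold (log2 fold change 2.00 ± 0.38, SE, edgeR adjusted p = 0.00136). The log2 fold change was 1.62 without wild type replicates 1 and 3 (edgeR adjusted p = 0.0161) and at most 2.25, without wild type replicate 2. Within EoE33 these surface genes shared an order: each was highest in replicate 4 and next in replicate 3, and lower in replicates 1 and 2. The granule genes did not share it, being highest in replicate 1 (Rnase2b), 2 (Rnase2a and Ear2) or 3 (Prg2). The log2 ratio of Siglecf to Ccr3 was 0.09 ± 0.91 in wild type and −0.77 ± 0.16 in EoE33 (mean and SD of 4 libraries each; exact permutation p = 0.0857, adjusted 0.143).

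**Figure D3:**
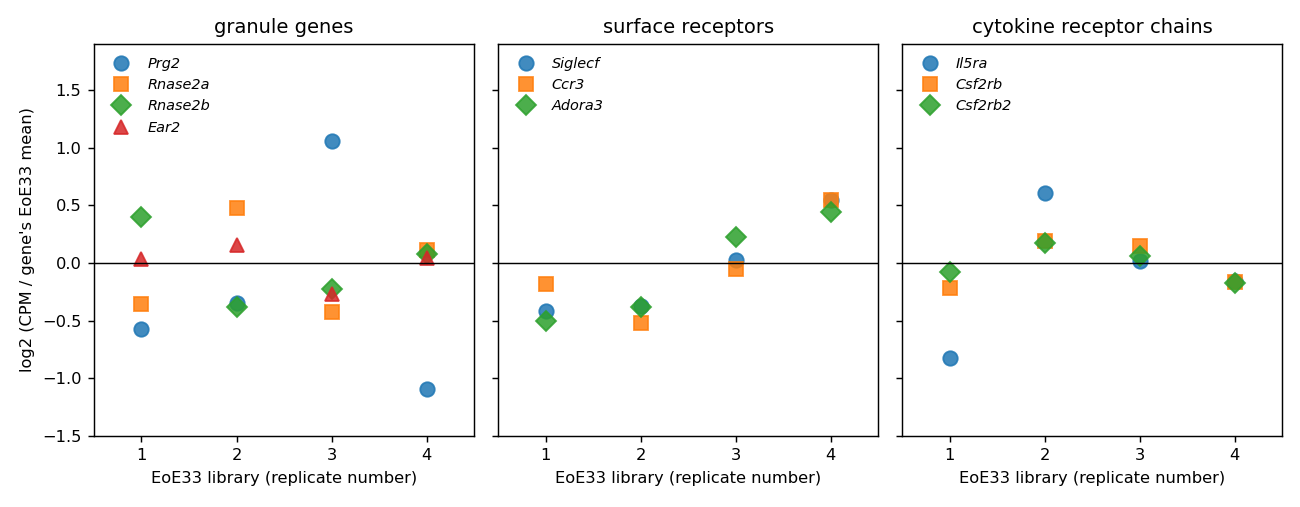
Level of each gene in the 4 EoE33 libraries relative to the gene's own EoE33 mean, on a log2 scale, with 0 as the mean. Prg2 stands highest in replicate 3, Siglecf, Ccr3 and Adora3 in replicate 4, and Il5ra, Csf2rb and Csf2rb2 in replicate 2.

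Ligands and relatives of the surface receptors moved in both directions. Of 6 genes listed as CCR3 ligands, 5 were tested and 4 rose (median log2 fold change 2.99). The list was set by name, and binding to mouse CCR3, of the Ccl8 product among others, was not tested. Ccl11, the eotaxin-1 gene, went from 598, 530, 546 and 736 counts to 11407, 17392, 19112 and 12443 counts, and its libraries did not overlap (log2 fold change 4.86). Ccl8 and Ccl7 had log2 fold changes of 7.36 and 1. Ccl24, the eotaxin-2 gene, had one of 2.99, which was 2.12 without EoE33 replicate 2 and did not pass without wild type replicates 1 and 3 (edgeR adjusted p = 0.0612). Ccl5 did not pass, at 0.563 CPM against 0.982 CPM in EoE33. Ccl28, also on the list, had 31 counts in wild type as a whole and 5 in EoE33 and was not tested.

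Of 12 other receptors of CC chemokines, 6 rose, 2 fell (32.1% of all genes tested were called lower) and 4 did not pass (median log2 fold change 1.2). Of the 6 that rose, Ccr4, Ccr7 and Ccr8 passed the filter through the EoE33 libraries. Ccr1 and Ccr2, receptors of monocytes and other leukocytes encoded in the same gene cluster as Ccr3, had log2 fold changes of 3.06 and 0.93. Ccr8, a receptor of type 2 lymphocytes, had 3 counts in wild type as a whole and 61 in EoE33, and the log2 fold change, 4.33 over all libraries, became 5.23 without wild type replicate 1. Ccr4 had 0, 0, 1 and 9 counts in wild type and 32, 14, 19 and 14 in EoE33. The value of 3.11 (log2 fold change) became 5.6 without wild type replicate 4 and did not pass without wild type replicates 1 and 3 (2.28, edgeR adjusted p = 0.0638). Ccr7 had a log2 fold change of 2.03 and did not pass without wild type replicate 1 (edgeR adjusted p = 0.0507) or without wild type replicates 1 and 3 (0.0593). The scavenging receptor genes Ackr4 and Ackr2 fell, with log2 fold changes of −1.97 and −0.73. Ccr6, Ccr9, Ccr10 and Ccrl2 did not pass, with log2 fold changes between −0.72 and 1.46.

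Of 8 other Siglec and signalling genes tested with Siglecf in mind, 4 rose and none fell (median log2 fold change 1). Siglece and Cd33, Siglec genes of myeloid cells, had log2 fold changes of 1.86 and 1.78, and Siglec1, a macrophage gene, 1.13. Ptpn6, the phosphatase that inhibitory Siglecs recruit, had one of 0.88. Siglecg and Cd22, both of B cells, did not pass, with log2 fold changes of 1.24 and 0.32. Mag and Siglech did not pass either, with −0.02 and −0.37, and Siglec15 had 1 count in all.

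Adenosine genes changed in both directions. Of 9 tested, 2 rose and 4 fell (median log2 fold change 0.12), beside 31.3% called higher and 32.1% called lower among all genes tested, and the higher count was 1 under 14 of 19 alternatives. Ada, the adenosine deaminase gene, had the largest change, from 25104, 25616, 33112 and 14121 counts to 644, 273, 625 and 632 (log2 fold change −5.32 ± 0.34, SE, edgeR adjusted p = 4.44e-06). Nt5e, which makes adenosine from AMP, and the transporter gene Slc29a1 had log2 fold changes of −1.28 and −1.22. Among the receptors, Adora2b had one of 3.21, from 3.61 to 33.4 CPM, Adora1 −1.35, and Adora2a did not pass with 0.40.

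Of the cytokine receptor chains, the beta chains were well counted and rose alike. Csf2rb, the shared chain for IL-5, IL-3 and GM-CSF, was at 7.84, 6.93, 8.2 and 13.6 CPM in wild type, against 46, 61, 59.1 and 47.5 CPM in EoE33. Csf2rb2, the chain for IL-3 alone, was at 6.86, 5.4, 4.94 and 7.53 CPM in wild type, against 32.9, 39.1, 36.1 and 30.7 CPM in EoE33. Log2 fold changes were 2.55 (95% interval 2.05 to 3.04) and 2.49 (2.16 to 2.82), with edgeR adjusted p of 1.56e-05 and 1.7e-06. The log2 ratio of Csf2rb to Csf2rb2 was 0.53 ± 0.31 in wild type and 0.62 ± 0.1 in EoE33 (mean and SD of 4 libraries each), a difference of 0.08 (exact permutation p = 0.629). Macrophages and neutrophils also carry these chains, and their markers rose in the same libraries. All 10 macrophage and monocyte markers were called higher, with summed levels of 213 to 358 CPM in wild type, against 442 to 583 CPM in EoE33. That count was 7 without wild type replicate 1, without EoE33 replicate 3 or 4, or without wild type replicates 1 and 3. All 7 neutrophil markers tested of 9 were called higher, at 28.4 to 40.8 and 756 to 1500 CPM. S100a9 and S100a8 made up most of the EoE33 sums, with means of 651 and 298 CPM. Both were highest in EoE33 replicate 1 and lowest in replicate 2, and the cells that made them were not tested. The other neutrophil markers tested had EoE33 means from 2.39 (Ly6g) to 45.4 CPM (Csf3r). Each of those was highest in EoE33 replicate 2 or 3. No marker of either list was at 0 in a group, and their part in the rise of the beta chains was not tested.

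Il5ra, the chain specific for IL-5, had the least certain rise. It had 1, 1, 20 and 14 counts in wild type and 23, 51, 46 and 35 counts in EoE33, so the groups did not overlap but wild type replicates 3 and 4 stood near the lowest EoE33 library. The log2 fold change was 2.32 ± 0.71 (SE, 95% interval 0.71 to 3.93, edgeR adjusted p = 0.0183), a 4.99-fold rise. It was 3.05 without wild type replicate 3 and 1.94, the lowest of all alternatives, without wild type replicate 1. The edgeR adjusted p was 0.0477 with no low-count filter. B cell markers differed between libraries in a like way. The 5 markers summed to 1.14, 0.702, 29.2 and 30.6 CPM in wild type and to 13.8, 47, 28.2 and 6.78 CPM in EoE33. Il5ra was highest in the EoE33 library with the highest B cell level, while EoE33 replicate 4, with the lowest, had Il5ra at 1.75 CPM, above both wild type libraries with more B cell transcripts (0.845 and 0.599 CPM). None of the 5 B cell markers passed between groups, none was at 0 in a group, and their part in the level of Il5ra was not tested.

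**Figure D4:**
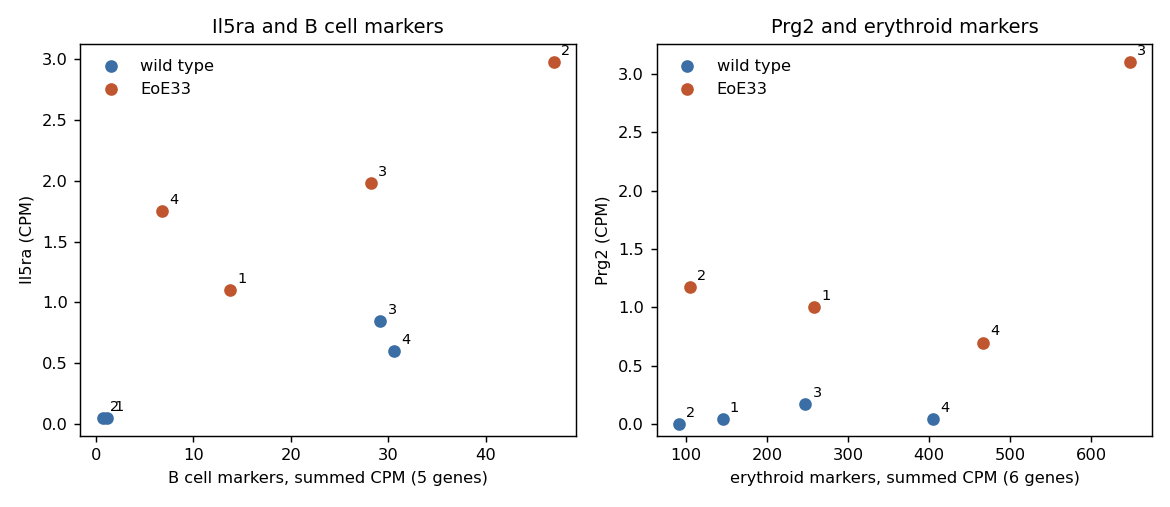
Il5ra against the summed level of 5 B cell markers (left) and Prg2 against that of 6 erythroid markers (right), in CPM, with 1 point a library and its replicate number (blue, wild type; orange, EoE33). Wild type replicates 3 and 4 hold both B cell transcripts (29.2 and 30.6 CPM) and Il5ra, and EoE33 replicate 3 holds the most Prg2 and the most erythroid transcripts.

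Of the cytokines that use these chains, Il5 alone had enough counts to be tested, and it did not pass. Il5, the chief eosinophil growth factor, had 14, 18, 21 and 28 counts in wild type and 13, 16, 22 and 18 in EoE33. These values overlap, and the log2 fold change of −0.03 had an SE of 0.27. Csf2, the GM-CSF gene, had 2 counts in wild type as a whole and 14 in EoE33 (count ratio 8.04, 95% interval 1.85 to 72.9), and Il3 had none in any library. The partner chains Il3ra and Csf2ra, the alpha chains for IL-3 and GM-CSF, had log2 fold changes of 1.51 and 0.82, both called. In the list of 18 genes of IL-5, IL-3 and GM-CSF signalling, 16 were tested, 11 rose, 3 fell and 2 did not pass (median log2 fold change 0.54). Socs1 and Socs3, inhibitors induced by cytokines, had log2 fold changes of 2.99 and 2.39, and the kinase gene Jak2 1.16. Stat5b, which encodes a transcription factor downstream of the beta chain, was among those that fell, from 63.6 to 39.2 CPM (log2 fold change −0.70).

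**Figure D5:**
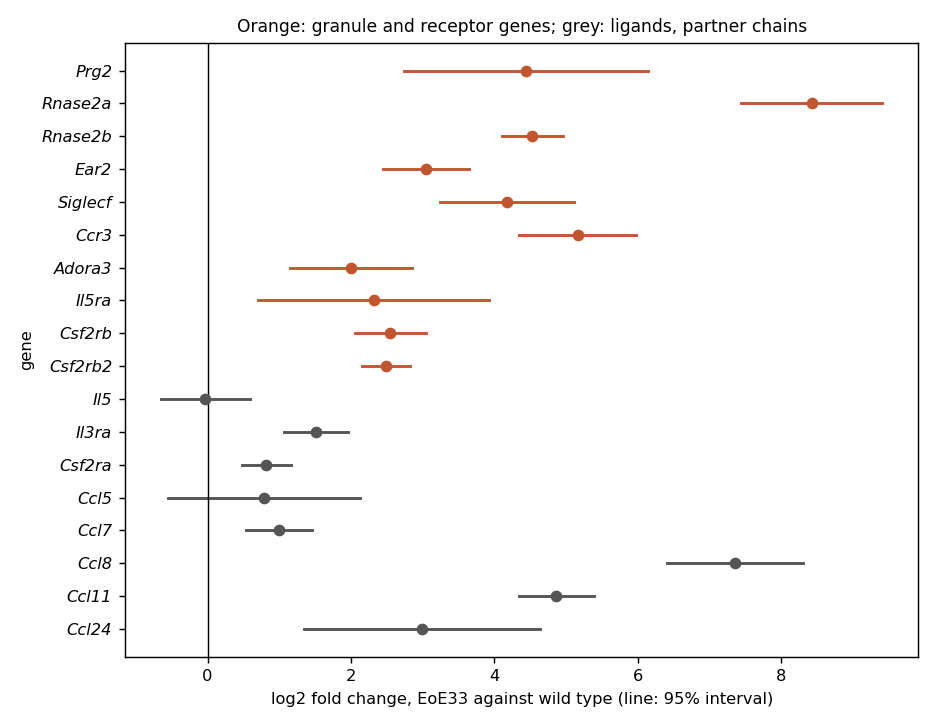
Log2 fold change of EoE33 against wild type with its 95% interval, for the 10 genes (orange) and for genes listed as ligands or partner chains of their receptors (grey). The intervals of all 10 genes lie above 0, as do those of Ccl8, Ccl11, Ccl24 and Ccl7, while those of Il5 (−0.03) and Ccl5 include 0.

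Per kilobase of merged exons, the ribonuclease genes had the highest levels in EoE33. Rnase2b stood at 220 ± 54.2 CPM per kb (SD, n = 4, as for all these levels), Rnase2a at 40.2 ± 12.1 and Ear2 at 16.7 ± 2.03. The beta chains followed at 7.34 ± 1.06 (Csf2rb) and 7.32 ± 0.778 (Csf2rb2). Prg2 at 1.78 ± 1.3, Ccr3 at 1.46 ± 0.477, Siglecf at 1 ± 0.331, Il5ra at 0.546 ± 0.219 and Adora3 at 0.326 ± 0.102 came last. The ranges of mean ± SD overlapped for the beta chains and for each pair of neighbours among these last 5 genes. All were measured in the same libraries, and their order within each library was not tested. In wild type the order began with Rnase2b (9.49 ± 0.998), Ear2 (2.02 ± 0.771), Csf2rb2 (1.3 ± 0.256) and Csf2rb (1.26 ± 0.415), and the other 6 lay between 0.0392 and 0.107. Except for Rnase2b, the ranges of mean ± SD overlapped between neighbours among the first 4. With the length of the longest coding transcript instead of merged exons, Csf2rb was at 10.9 ± 1.58 and Csf2rb2 at 7.32 ± 0.776 in EoE33. The order of the 2 beta chains thus depends on the length used.

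Transcription factors of the eosinophil lineage gave 5 rises and no fall among 9 tested of 10 (median log2 fold change 0.79), beside 31.3% called higher and 32.1% called lower among all genes tested. Cebpe, a factor of late granulocyte maturation in eosinophils and neutrophils, had 2, 0, 1 and 4 counts in wild type and 24, 30, 59 and 64 in EoE33, and the log2 fold change, 4.75 over all libraries, became 5.48 without wild type replicate 4. Spi1, which encodes PU.1 of myeloid cells, Trib1 and Xbp1 had log2 fold changes of 1.58, 1.11 and 0.97. Gata2, Zfpm1, Cebpa and Id2 did not pass, with log2 fold changes of −0.12, −0.08, −0.33 and −0.08. Gata1, a lineage factor not confined to eosinophils, had 11 counts in wild type as a whole and 12, 5, 21 and 7 in EoE33, and was not tested. It was highest in EoE33 replicate 3, as were the summed erythroid and mast cell markers (648 and 131 CPM). The part of those cells in its counts was not tested. Of 13 further surface and lipid mediator genes of eosinophils, 11 were tested, 8 rose and none fell (median log2 fold change 1.10). Cd300lf, an inhibitory receptor gene of myeloid cells, rose from 2, 2, 12 and 15 counts to 458, 504, 849 and 550 (log2 fold change 6.42). Alox15 reached a log2 fold change of 6.93, and 7.74 when wild type replicate 3 was left out, and C3ar1 and Alox5ap had 1.2 and 1.07.

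Markers of other cells that carry some of these genes were counted in both groups. Mast cell markers, beside Adora3, rose in 5 of 9 tested of 10 and fell in none, with summed levels of 20 to 73.4 CPM in wild type, against 65.1 to 131 CPM in EoE33. That count was 3 under 7 of 19 alternatives, among them leaving out wild type replicate 1, 2 or 3 or EoE33 replicate 3 or 4. Basophil markers rose in 2 of 2 tested of 4, at 0.263 to 1.37 and 2.34 to 4.61 CPM, with Mcpt8 at 0 counts in wild type, and the count ran from 0, without wild type replicates 1 and 3, to 3 over the alternatives. Alveolar macrophage markers, beside Siglecf and Ear2, rose in 3 and fell in 2 of 6 tested of 7, at 148 to 758 and 128 to 281 CPM. Fabp4 and Cidec made up most of the wild type sums, with means of 349 and 115 CPM. The sums therefore describe these 2 genes more than the list, and the cells that made their transcripts were not tested. Marco was not tested, with 8, 1, 273 and 96 counts in wild type and 2, 3, 11 and 9 in EoE33. Chil3, Atp6v0d2 and Car4 were the 3 that rose, and Krt79 and Cidec the 2 that fell. Tuft cell markers rose in 1 and fell in 2 of 4 tested of 7, at 20.4 to 28.1 and 10.2 to 14.9 CPM, with Il25 at 2 counts in each group. The part of these cells in the 10 genes was not tested.

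Derl3, Mirt1, Clec7a and Phyhipl were among the 5 genes whose profile over the 8 libraries was most like the mean profile of the 10. Likeness was the root mean square difference of log2 CPM, centred on each gene's mean, over the 8 libraries, among genes with a mean of at least 1 CPM. It was 0.283 for Derl3, a gene of protein degradation at the endoplasmic reticulum, 0.299 for Mirt1, 0.303 for Clec7a, the gene of the myeloid lectin Dectin-1, and 0.31 for Phyhipl. Of the 10 themselves Ear2 was nearest at 0.466 and Rnase2a farthest at 2.34. Derl3 had 6, 7, 17 and 16 counts in wild type and 132, 161, 177 and 134 in EoE33. Since these genes were picked for a profile like that of genes higher in EoE33, their difference between the groups is a description.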

How the data were processed

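RNA of whole esophagus from 8 mice was sequenced as polyA-selected, paired-end libraries, per the labels' protocols. The authors deposited raw counts per gene. The submitters' processing notes list GRCm38 as build and, with no roles, STAR 2.5.2b, Subread 1.5.2 with featureCounts, and Trimmomatic 0.36. None of the sources used here gives the annotation release, the strand setting or the handling of multi-mapped reads. Columns were assigned to samples by the spreadsheet column letter in each sample's description, and groups come from the sample titles. GENCODE M21 (GRCm38) gave symbols for 49056 identifiers and 259 did not match.

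Genes were filtered with edgeR's filterByExpr, scaled by TMM factors and tested by edgeR 4.0.16's quasi-likelihood test (glmQLFit, robust; glmQLFTest) in R 4.3.3, with Benjamini-Hochberg adjusted p under 0.05 over all 16760 genes tested. Standard errors come from the quasi-likelihood F statistic. The labels do not say that the mice came from separate litters or that RNA was extracted separately, so p-values measure the spread between these libraries. Libraries of a group all differed by more than sampling noise (lowest chi-square over its degrees of freedom 10.38). Alternatives were DESeq2 1.42.0, limma-voom (limma 3.58.1), other scalings and filters, a replicate block and leaving out libraries. Coding and upstream sequences were aligned with mafft 7.526, and the procedure was tested on simulated counts.

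The genes and lists were chosen with earlier results of these data known. The text names the 10 genes, their ligands, partner chains and paralogs, up to 4 genes with the smallest p of other lists, and the 5 genes of most similar profile, apart from some genes that are not reported here. Epx, Gata1, Rnh1, other markers and some other listed genes were named after their values were seen. Without molecular identifiers, reads are not independent molecules, so intervals and floors cover counting error only. Protein sequences were not used here.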

Additional observations from a re-analysis of the deposited data

Results flagged for a closer look

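Levels of the 10 genes and summed levels of the cell type marker lists were checked for a library far from the other 3 of its group, in 44 groups, where chance alone would give about 1 in 20. None of the 20 groups of the 10 genes was picked out. Wild type replicate 3 stood apart in airway markers (1900 CPM against 374 to 543, the latter mostly Cyp2f2) and wild type replicate 1 in liver markers (151 CPM against 4.49 to 11.5). Wild type replicate 4 stood apart in basophil markers (1.37 CPM against 0.263 to 0.38), and EoE33 replicate 3 in liver markers (4.09 CPM against 0.643 to 1.15).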

How the results depend on the processing

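All 10 genes stayed higher and past the threshold under each of the 19 alternatives in which they were tested. Prg2 and Adora3 were not tested under a mean of at least 1 CPM, where 8 of 8 were called. The largest adjusted p was 0.0477, for Il5ra with no low-count filter. The log2 fold change of Il5ra ran from 1.94, without wild type replicate 1, to 3.07, with limma-voom. With the replicate block, the 10 genes were all called, with log2 fold changes from 2.02 for Adora3 to 8.40 for Rnase2a, and 4936 genes were higher and 5120 lower in all. By the labels, mice with the same number share only that number, and their deviations correlated between −0.14 and 0.085. Whether they shared a litter or a batch was not tested. Genes of the pathway lists called higher were 40 to 47, against 44, and those called lower 8 to 11, against 9. Genes with values near 0 changed sign. Mag had 0.18 with limma-voom, 0.08 with the replicate block, 0.25 without wild type replicates 1 and 3, and −0.28 to 0.48 without 1 library. Without 1 library, Il5 ran from −0.18 to 0.16, Cd22 from −0.14 to 1.14 and Siglech from −0.62 to 0.44. The cause was not tested. Siglecg passed with limma-voom (adjusted p = 0.0395), and Ccr10 without wild type replicate 3 (0.0489) or EoE33 replicate 4 (0.0121). Depth limits Prg2, Rnase2a, Siglecf and Ccr3, which rest on 6 to 14 wild type counts each.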
